A study of Mus musculus with 24 samples.

Results

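The genes of store-operated calcium entry form a set of 10 among the 21755 protein-coding genes annotated on 20 mouse chromosomes: the ORAI channels (Orai1, Orai2 and Orai3), the STIM sensors (Stim1 and Stim2), the IP3 receptors (Itpr1, Itpr2 and Itpr3) and the SERCA pumps (Atp2a2 and Atp2a3). They were listed by name, and a gene was scored as marked when a peak of H3K4me3, trimethylation of lysine 4 of histone H3, lay within 250 bp of any of its transcription start sites (TSSs). H3K4me3 was mapped by ChIP-seq as 3 replicates in C127 cells without a tagged protein, a line from mouse mammary epithelium for which no treatment is stated. The study compared this mark with the binding of CFP1, a subunit of the SET1 complex that places it, and the other 21 of 24 samples were not analysed here. The file analysed was a single list of 13451 peaks found in every replicate, with positions only. The values below therefore have no spread between replicates and no test, and read depth is unknown.

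When calcium leaves the endoplasmic reticulum (ER), the STIM proteins in its membrane sense the loss, cluster near the plasma membrane and open ORAI channels. IP3 receptors release the stored calcium after phospholipase C has made IP3, and SERCA pumps refill the store from the cytosol. The entering calcium drives signalling through calmodulin, calcineurin and NFAT, and in the lactating mammary gland calcium transport also supplies milk.

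H3K4me3 was present at 9 of the 10 genes, and Atp2a3 was the exception. Over the whole annotation the TSS was marked in 10747 of 21755 protein-coding genes (49.4%), and 10394 of the 14762 genes with a CpG island (CGI) promoter did (70.4%). All 10 listed genes had a CGI at a TSS, so the latter share is the closer of these backgrounds for them. All 10 also had a stretch that met the stricter minima given below, and 77.7% of genes with such a stretch were marked. CGI promoters were present at 67.9% of all protein-coding genes, and of the 6993 genes without one 5.05% were marked. CGIs were defined from sequence alone, with a length of 200 bp or more, a GC fraction of 0.5 or more and a ratio of observed to expected CpG of 0.6 or more.

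The epithelial label of the cells was compared with marker genes. None of 5 luminal (Krt8, Krt18, Krt19, Cdh1 and Epcam) and none of 3 basal mammary markers (Krt5, Krt14 and Trp63) had a TSS peak, whereas 3 of 4 mesenchymal markers did, with 7153 bp at Vim, 7629 bp at Fn1 and 3624 bp at Zeb1, and none at Col1a1. The 2 immune and 2 endothelial markers were unmarked. These and the basal markers Krt14 and Trp63 had no CGI promoter, a class in which 5.05% of protein-coding genes were marked. All luminal and mesenchymal markers and Krt5 had a CGI promoter, a class in which 70.4% were marked. The 3 of 4 mesenchymal markers were close to that share. The highest CpG count within 250 bp of a TSS was 12 at Krt8, 11 at Krt19 and 17 at Krt5. In bins of 5 CpGs, these fell where 16% or 28.9% of genes were marked. Krt18, Cdh1 and Epcam, with 32, 35 and 69, fell where 73.3%, 77.5% and 81.4% were. Cdh1, Krt14, Col1a1 and Pecam1, an endothelial marker, each had 1 peak inside the gene away from any TSS. The listed mammary epithelial markers thus lacked a peak at their TSSs, but for several of them few genes of like CpG content were marked. What part the state of the cells has in the pattern of the calcium genes was not tested.

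To show how these promoters compare in sequence, 120 bases upstream of the TSS are given for the 3 channel paralogs, the sensor whose promoter of 300 bases held the most CpGs (Stim2, 39) and the unmarked gene (Atp2a3), 5′ to 3′ on the gene's strand with CpG dinucleotides in capitals. The sequences came from RefSeq promoters on GRCm38.p6, which held 8 of the 10 genes and not Itpr1 or Atp2a2. Each stretch ends just before the RefSeq or the GENCODE start site, whichever lies further upstream. At Orai2 and Stim2 this was the GENCODE start, 57 and 24 bases upstream of the RefSeq start. The stretches are chr5:123014954-123015073 on the plus strand for Orai1, chr5:136170714-136170833 on the minus strand for Orai2, chr7:127769695-127769814 on the plus strand for Orai3, chr5:53998379-53998498 on the plus strand for Stim2 and chr11:72961049-72961168 on the plus strand for Atp2a3.
Orai1: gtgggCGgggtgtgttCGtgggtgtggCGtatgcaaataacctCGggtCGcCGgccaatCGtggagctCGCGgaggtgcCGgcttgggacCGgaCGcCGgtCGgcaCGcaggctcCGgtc
Orai2: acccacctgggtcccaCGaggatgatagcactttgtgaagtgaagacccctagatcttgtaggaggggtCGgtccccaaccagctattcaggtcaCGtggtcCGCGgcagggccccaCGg
Orai3: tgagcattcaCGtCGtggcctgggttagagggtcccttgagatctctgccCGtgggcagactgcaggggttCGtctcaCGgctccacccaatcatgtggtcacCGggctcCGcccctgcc
Stim2: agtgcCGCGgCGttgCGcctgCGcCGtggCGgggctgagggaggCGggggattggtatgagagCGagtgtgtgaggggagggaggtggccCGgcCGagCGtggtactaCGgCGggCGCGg
Atp2a3: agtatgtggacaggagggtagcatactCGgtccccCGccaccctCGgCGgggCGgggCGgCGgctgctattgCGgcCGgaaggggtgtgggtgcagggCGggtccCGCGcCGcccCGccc
The Orai1 and Stim2 stretches held 16 CpGs each and the unmarked Atp2a3 stretch held 14. The stretches of the marked Orai2 and Orai3 held 6 and 7, fewer than Atp2a3.

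ORAI1 forms the pore of the calcium release-activated calcium channel, and ORAI2 and ORAI3 are related channel subunits that can assemble with it. All 3 ORAI genes were marked. The Orai1 peak covered chr5:123014401-123018532, 4132 bp wide, which placed it at percentile 72.7 of peak width among the 10747 marked genes. It reached 3458 bp downstream of the TSS and 673 bp upstream. The Orai2 peak at chr5:136168736-136172997 was of similar width, 4262 bp or percentile 75, but lay differently around its TSS.

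Orai2 was the only listed gene whose peak reached further upstream than downstream, with 2284 bp upstream and 1977 bp downstream. The upstream reach stood at percentile 95.9 of the 7223 marked genes that had no TSS of the other strand within 2 kb and whose TSS lay inside the peak, of which 92.9% reached further downstream. Its CGI at the TSS was the shortest of the set, 491 bp, so that 2099 bp of the peak lay upstream of that island and 1672 bp downstream of it. The peak held 2 islands with 835 bp in all, so the part upstream of the TSS island was not free of CGI sequence. The Orai3 peak, chr7:127768909-127772468, was 3560 bp wide (percentile 59.0). Because Orai3 is a gene of only 5.3 kb, the peak covered 49.7% of it, a larger share than at any other listed gene. Orai1 followed with 22.5% of 15.4 kb.

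STIM1 is the main sensor of store depletion, and STIM2, which responds to smaller drops in ER calcium, helps to set the resting level. Both sensor genes were marked, with peaks of nearly the same width. The Stim1 peak at chr7:102266825-102270431 was 3607 bp wide (percentile 60.2) and the Stim2 peak at chr5:53997941-54001397 was 3457 bp wide (percentile 55.8). In the direction of transcription, Stim1 reached 2625 bp and Stim2 2898 bp, and in the other direction 981 and 558 bp. Both genes are long, 169.5 and 122.6 kb, and the peaks covered 1.55% and 2.37% of them.

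The 3 IP3 receptors are large channels of the ER membrane that open on binding IP3 and differ in their sensitivity to it. All 3 genes were marked, and they held both extremes of width in the set. The widest peak was at Itpr3, chr17:27055938-27061367, with 5430 bp (percentile 89.7). The narrowest was at Itpr2, chr6:146499725-146502958, with 3234 bp (percentile 49.4), and this was the only one below the median of all marked genes. Itpr1 had a peak of 3482 bp at chr6:108211415-108214896 (percentile 56.6). The Itpr3 peak reached 4063 bp downstream of the TSS, the furthest of the set, against 2453 bp at Itpr2 and 1800 bp at Itpr1. Upstream, Itpr1 reached furthest of the 3, with 1681 bp against 1366 bp at Itpr3 and 780 bp at Itpr2.

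SERCA2, encoded by Atp2a2, is the pump found in most cell types, whereas SERCA3, encoded by Atp2a3, is known mainly from blood cells, endothelium and some epithelia. The paralogs differed in the list. Atp2a2 had a peak of 3736 bp at chr5:122499637-122503372 (percentile 63.5), which reached 2588 bp downstream and 1147 bp upstream of its TSS. Atp2a3 had no peak at its only basic TSS, position 72961169 on the plus strand of chromosome 11, nor anywhere over its 31.9 kb. The nearest peak upstream lay 7138 bp away at chr11:72953504-72954031, was 528 bp wide and was at no TSS. The nearest peak downstream lay 56443 bp away. All marked TSSs of the set lay inside their peak, so no listed gene sat near the limit of 250 bp on either side.

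**Figure D1:**
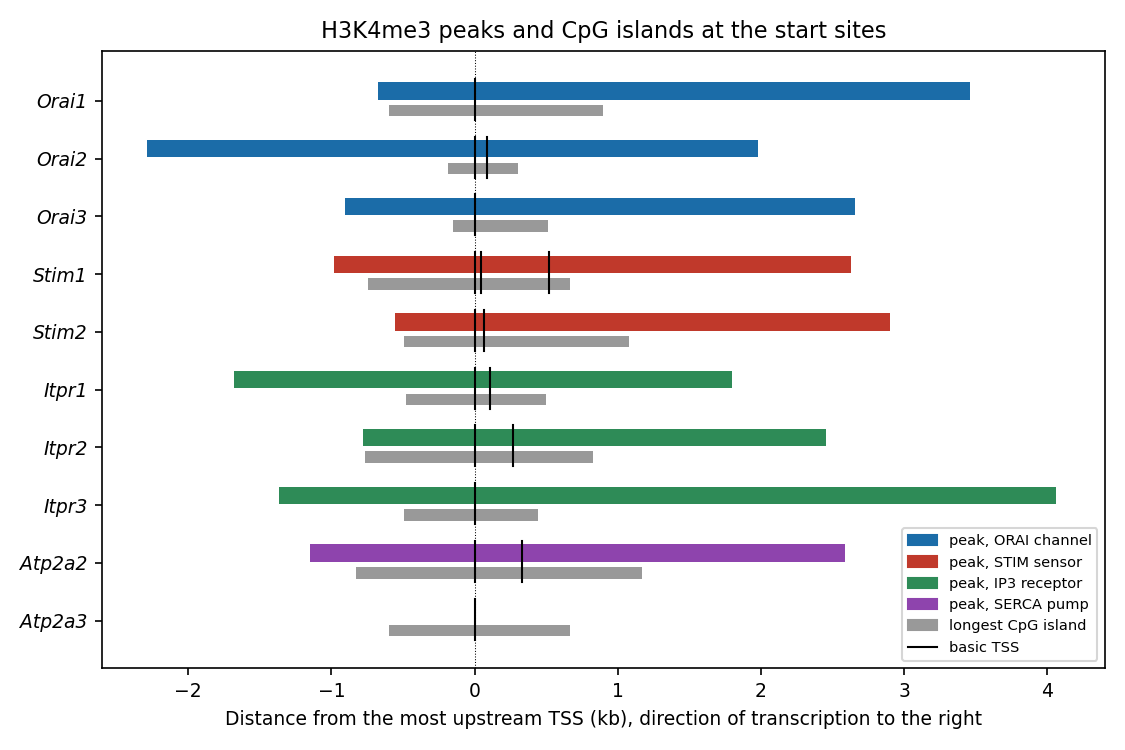
H3K4me3 peaks (coloured bars, by protein family), the longest CpG island at the TSS (grey bars) and the basic TSSs (black ticks) of the 10 genes, by distance in kb from the most upstream basic TSS with transcription to the right. The 9 peaks span their islands and extend further downstream than upstream except at Orai2, and Atp2a3 has an island of 1262 bp without a peak.

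As a set, the 9 peaks lay mostly in the upper part of the width distribution of marked genes. Their median width was 3607 bp, with a range of 3234 to 5430 bp, beside a median of 3254 bp and quartiles of 2410.5 and 4258 bp over all 10747 marked genes. Of the 9 peaks, 8 exceeded that median, 2 exceeded the upper quartile (Orai2 and Itpr3) and none fell below the lower one. The median percentile was 60.2, and it was 59.8 when only marked genes with a CGI promoter were compared. Widths of 3457 to 3736 bp held 5 of the 9 genes (Stim2, Itpr1, Orai3, Stim1 and Atp2a2), so most of the set differed by little. With no replicate values, it cannot be told which of these widths differ beyond the error of a peak edge.

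**Figure D2:**
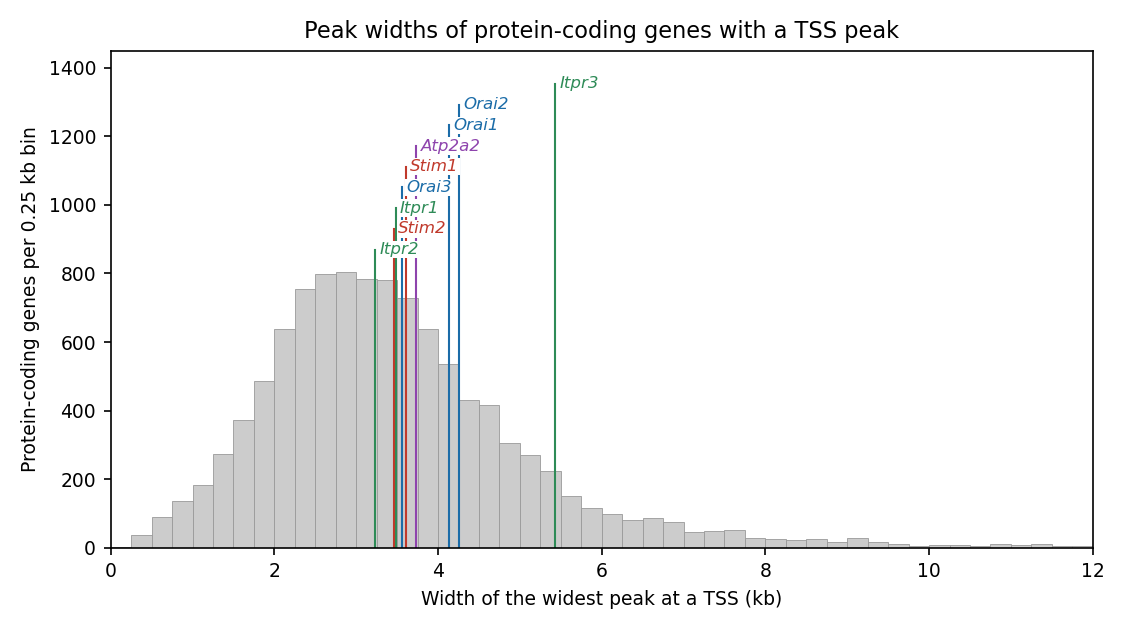
Histogram of the width in kb of the widest TSS peak for protein-coding genes with a peak, in bins of 0.25 kb up to 12 kb, with the 9 marked genes of the set as coloured lines (the height of a line has no meaning). Itpr2, at 3234 bp, lies just below the overall median of 3254 bp, and Itpr3, at 5430 bp, lies in the upper tail.

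The median reach was 2625 bp downstream and 981 bp upstream for the 9 genes, beside 2183 bp (quartiles 1607 and 2862.5 bp) and 760 bp (quartiles 438 and 1185 bp) for the same 7223 genes. The sets are not quite alike, since the 9 include Orai1, which has a TSS of the other strand within 2 kb. The downstream edge lay in intron 1 of the transcript starting at the TSS used in 7 genes, in intron 2 at Itpr1 and in intron 3 at Atp2a2. Orai1 was the only listed gene with a divergent start site. The antisense lncRNA Gm2479 starts at position 123015080, 6 bp inside Orai1 on the other strand, within the same peak. Of all marked genes, 3418 (31.8%) had a TSS of the other strand within 2 kb.

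Each of the 9 peaks covered the whole CGI at the TSS and ran past it. Beyond the downstream end of the longest island the peaks extended for 1300 bp (Itpr1) to 3618 bp (Itpr3). On the upstream side the overhang ranged from 13 bp at Itpr2 and 62 bp at Stim2 to 2099 bp at Orai2, the only gene where it was the larger. The overhangs were not always free of islands, since the peak held 2 islands at Orai2 and 3 each at Stim1, Itpr1 and Itpr3. The islands themselves ranged from 491 bp at Orai2 to 1999 bp at Atp2a2. Order by island length was not order by peak width, since Atp2a2 with the longest island ranked below Orai2 with the shortest and below Itpr3 with 939 bp. All 10 genes also had, within 250 bp of a TSS, a stretch called separately under stricter minima of 500 bp, a GC fraction of 0.55 and a CpG ratio of 0.65. These stretches need not share the bounds of the islands above, and the shortest was again at Orai2 (513 bp). Such a stretch was found at 12574 protein-coding genes (57.8%), of which 77.7% were marked.

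The number of CpGs within 250 bp of the TSS varied from 26 to 86 among the marked genes. It was lowest at Orai3 (26), Itpr1 (31) and Orai2 (36), intermediate at Itpr2 (44), Stim1 (53) and Itpr3 (55), and highest at Orai1 (66), Stim2 (72) and Atp2a2 (86). The median over all marked genes was 43 and over unmarked genes 9. Atp2a2 stood at percentile 99.0 of marked genes and Orai3 at percentile 13.1. Atp2a3 had 46 CpGs, more than 4 of the marked genes of the set. It stood at percentile 55.7 of marked and percentile 91.0 of unmarked genes. Of 1493 genes with a CGI promoter and a CpG count within 2 of that of Atp2a3, 1211 (81.1%) were marked. Its island, chr11:72960575-72961836, had a GC content of 63.8% and a CpG ratio of 0.678. Both values lay within the range of the 9 marked genes, 58.4% to 70.2% and 0.622 to 0.953.

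**Figure D3:**
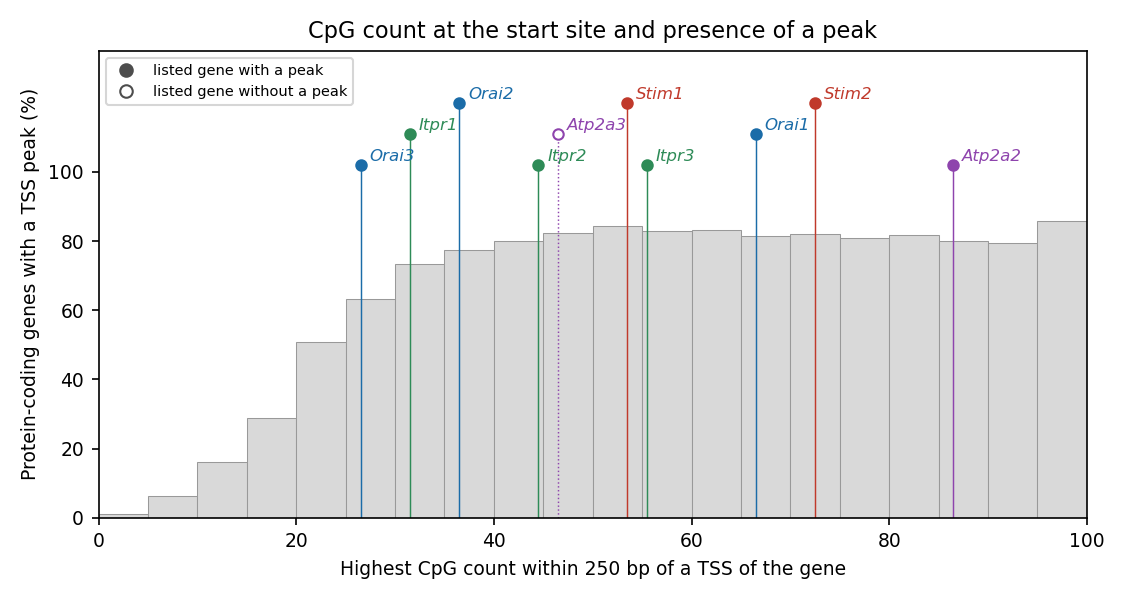
Share of protein-coding genes with a TSS peak (grey bars, %) by the highest CpG count within 250 bp of a TSS in bins of 5, with the 10 genes placed by their own count (filled circles with a peak, open circle without; circle height has no meaning and the last bin also holds higher counts). Atp2a3, with 46 CpGs, falls in a bin where 82.3% of genes were marked, and Orai3, with 26, in a bin where 63.2% were.

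Short sequence motifs were counted in the RefSeq promoters, 250 bases before to 50 after the start, on both strands. The GC box GGGCGG was found in 8 of 8 matched promoters and in 35.9% of 32619 promoters. The 32619 were not limited to CGI promoters and had a median of 7 CpGs, whereas the 8 held 11 to 39. Shares among CGI promoters alone were not computed, so no enrichment or depletion can be read from the motif values. It was most frequent at Stim1, with 8 matches, and Atp2a3 and Itpr2 had 5 each. CCAAT occurred in 4 of 8 promoters (Orai1, Orai3, Stim2 and Itpr2), beside 37.6% of all promoters. TATAAA occurred in none of the 8, beside 13.7%. The ETS motif CCGGAAG was found only at the unmarked Atp2a3, 45 bases before its start, and in 8.92% of all promoters. The cyclic AMP response element TGACGTCA was found in none of the 8 and in 1.8% of all promoters. None of these motifs contains another.

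With regard to alternative promoters, the set had 17 basic TSSs, of which 16 were marked. In the 6 genes with several basic TSSs (Orai2, Stim1, Stim2, Itpr1, Itpr2 and Atp2a2), 1 peak spanned all of them. The TSSs of a gene were close together, at most 521 bp apart at Stim1, so the list could not separate them. Of 6109 marked genes with several TSSs, 75.1% had a peak at every TSS. Transcripts outside the basic set added 37 TSSs, of which 10 lay in the same promoter peaks and 27 had no peak. Unmarked starts were internal in every marked gene. Stim1 had 4 of them, 158 to 163 kb into the gene, Stim2 had 3, Itpr1 had 11, Itpr2 had 6 and Itpr3 had 1. Several of these are annotated as protein-coding, such as Itpr1-202, 203708 bp into its gene, and Stim2-203, 106869 bp into its gene. At Atp2a3 both additional TSSs were unmarked as well.

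Away from TSSs, the set had 5 peaks inside genes, all of them in introns of Itpr1 and Itpr2. In Itpr1, a peak of 800 bp lay in intron 4, 93.6 kb from the TSS (chr6:108306288-108307087). A further pair lay in intron 44, at 231.7 and 234.7 kb (chr6:108444322-108445344, 1023 bp, and chr6:108447215-108448381, 1167 bp), separated by 1870 bp. In Itpr2, both peaks lay in intron 2, at 28.9 kb (chr6:146472422-146474114, 1693 bp) and 70.0 kb (chr6:146431258-146433151, 1894 bp). None of the 5 was at a TSS of any annotated transcript. The nearest such TSS was 7802 bp away. Itpr3, a far shorter gene of 64.9 kb, and the other 7 genes had no peak of this kind.

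Peaks of this kind were more frequent in long genes. Over all protein-coding genes 6.44% had a peak away from any TSS. The share was 8.62% of 10542 marked genes under 300 kb and 33.7% of 205 marked genes of at least 300 kb, the class to which Itpr1 (338.0 kb) and Itpr2 (393.9 kb) belong. At least 2 such peaks were found in 37 of the 205 (18%) and at least 3 in 21 (10.2%). The Itpr2 peaks were at percentiles 73.4 and 78.7 of width among the 3411 peaks away from TSSs (median 1136 bp), and the Itpr1 peaks at percentiles 29.0, 44.3 and 51.9.

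The intronic peaks were poor in CpG. They held 16 to 25 CpGs each, 10.6 to 20.0 per kb, with observed over expected ratios of 0.185 to 0.333, whereas the 9 promoter peaks of the set held 23.9 to 67.7 per kb. The median was 16.9 per kb over all peaks away from TSSs and 34.1 over peaks at TSSs. Only the 1894 bp peak of Itpr2 overlapped a CGI, beside 41.8% of the 3411 peaks. That CGI, chr6:146431060-146431265, was 206 bp long and met only the edge of the peak, which starts at position 146431258. The central 120 bases of the Itpr1 peak in intron 4 (chr6:108306627-108306746, plus strand) and of the Itpr2 peak 28.9 kb into the gene (chr6:146473208-146473327, minus strand), read from GRCm38.p6, are shown to contrast with the promoters given earlier.
Itpr1 intron 4: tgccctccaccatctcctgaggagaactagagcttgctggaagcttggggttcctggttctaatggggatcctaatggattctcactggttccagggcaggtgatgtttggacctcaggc
Itpr2 intron 2: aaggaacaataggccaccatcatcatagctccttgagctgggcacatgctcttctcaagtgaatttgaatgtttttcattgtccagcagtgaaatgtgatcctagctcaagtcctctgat
Neither stretch held a CpG, and the centres of the other 3 intronic peaks held 2 to 4, compared with 6 to 19 in the upstream stretches of the same length at the 8 matched genes. The 200 bp rule for CGIs is permissive, with 182039 called on the 20 chromosomes against 21593 under the stricter minima. Many of those inside the listed genes were stretches of little over 200 bp with few CpGs. The share of all such CGIs that met a peak was not computed, so the counts that follow have no background. Of 122 CGIs inside the 10 genes and away from their TSSs, 3 met a peak. Those in Itpr1 and Itpr3 lay in the promoter peak of the gene, and the third was the CGI at the edge of the Itpr2 peak. Of 34 in Itpr1 only the island next to its TSS met a peak. The longest of those in Itpr1 had no peak. It lay 59 kb into the gene at chr6:108271874-108273234, was 1361 bp long with 93 CpGs and a GC content of 65.9%, contained no exon, and its nearest TSS was 18916 bp away.

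**Figure D4:**
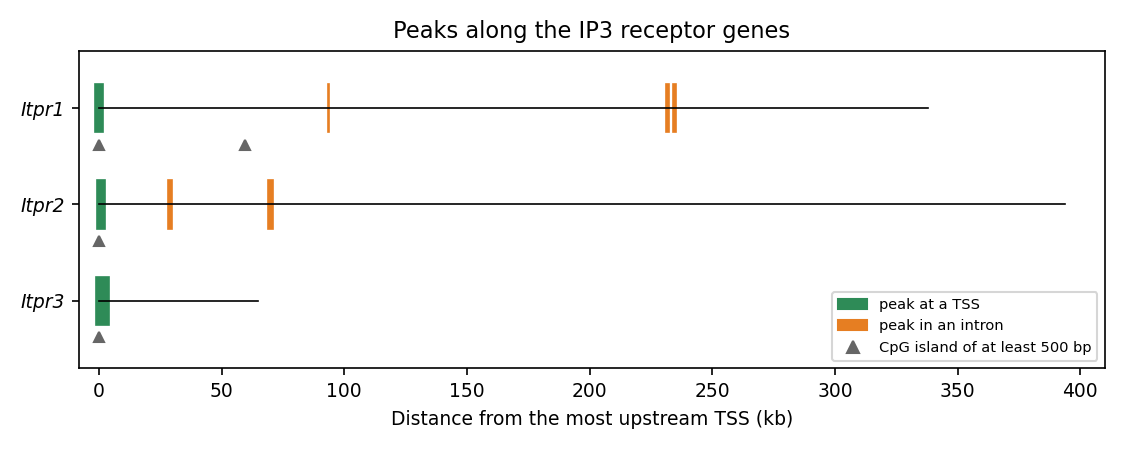
The 3 IP3 receptor genes drawn from the most upstream basic TSS to the end of the gene (black line, distance in kb), with peaks at a TSS in green, peaks in introns in orange and CpG islands of at least 500 bp as grey triangles. Itpr1 has 3 intronic peaks and Itpr2 has 2, none of them at an island of this length, and the long island of Itpr1 away from its TSS has no peak.

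The surroundings of the genes differed. Orai1, Orai2, Stim2 and Atp2a2 are on chromosome 5, where the TSSs of Atp2a2 and Orai1 lie 512.8 kb apart. The genes named in the rest of this paragraph were chosen after their values were seen. Orai3 had the most crowded position, with the peak of Setd1a, which encodes a catalytic subunit of the SET1 complex, 2937 bp downstream and that of Fbxl19, which encodes a CXXC-domain protein, 19731 bp upstream. Upstream of Orai1 the nearest peak, at a gap of 22804 bp, was at Kdm2b, another CXXC-domain gene and the subject of a ChIP in the same series. Stim2 had the emptiest downstream side, with no peak over 3.71 Mb as far as Pcdh7, while upstream a peak of 455 bp at no TSS lay 2119 bp away. Downstream of Stim1 the nearest peak was 171.1 kb away, at Rrm1 beyond the end of the gene.

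Other genes of calcium handling were examined from a list of 71 in 9 groups, of which 40 (56.3%) were marked, beside 49.4% of all protein-coding genes. All 40 were among the 61 with a CGI promoter, so that 65.6% of those were marked, below the 70.4% of all genes with a CGI promoter. Among regulators of STIM and ORAI, 6 of 9 were marked. The widest peaks were at Cav1 (6351 bp), a caveolae protein, Esyt2 (5569 bp) and Esyt1 (4345 bp), which tether the ER to the plasma membrane, and Asph (4030 bp), whose locus also encodes junctate. Saraf, which inactivates the channel, and Stimate, a STIM activator annotated as Tmem110, had narrow peaks of 1703 and 2147 bp. Cracr2a, Cracr2b and Tmem178 had no TSS peak, and of these Cracr2b had no CGI promoter.

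The genes of proteins that hold calcium in the ER lumen were all marked, 6 of 6. All 6 had a CGI promoter, a class in which 70.4% of protein-coding genes were marked. Hspa5 had the widest peak of this group (6953 bp), followed by Pdia3 (5363 bp), Calr (5157 bp), Hsp90b1 (5140 bp), Canx (4861 bp) and Erp44 (2674 bp). The peaks of all but Erp44 were wider than those of 8 of the 9 marked store-operated entry genes, but only that of Hspa5 was wider than that of Itpr3. By contrast, none of the 5 genes for the muscle pump SERCA1 and the small SERCA regulators was marked (Atp2a1, Mrln, Pln, Sln and Strit1), and none had a CGI promoter. Of the other routes out of the ER, Sec61a1 (4780 bp) and Tmco1 (2785 bp) were marked, whereas the ryanodine receptors Ryr1, Ryr2 and Ryr3, the release channels of muscle and neurons, were not, although all 3 had a CGI promoter. Among these release channels, 3 of 3 IP3 receptor genes and 0 of 3 ryanodine receptor genes were marked, beside 70.4% of genes with a CGI promoter. With 3 genes each, the counts give no result about the families.

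Few genes were marked among the TRPC channels and among a mixed group of pumps and exchangers of the plasma membrane, Golgi and mitochondria. Only Trpc1 of the 7 TRPC channels was marked, with a peak of 1477 bp, and Trpc2, Trpc4 and Trpc5 were among the 6 without. Trpc2 alone of the TRPC genes had no CGI promoter. Of 10 plasma membrane and Golgi pumps and exchangers, all with a CGI promoter, 3 were marked (30%, beside 70.4% of genes with such a promoter). These were Atp2b1 (4763 bp), the plasma membrane pump of most cells, Atp2c1 (3440 bp), the Golgi pump, and Slc8b1 (3181 bp), an exchanger that works mainly in mitochondria. Atp2b2, Atp2b3, Atp2b4 and Atp2c2 were among the 7 unmarked genes. Atp2b2 and Atp2c2 encode pumps used by the secretory mammary gland in lactation.

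Of the genes of mitochondrial uptake, 8 of 8 were marked. All 8 had a CGI promoter, a class in which 70.4% of protein-coding genes were marked. Widths were modest, led by Mcu (3272 bp), the pore, Vdac1 (3211 bp), Smdt1 (3175 bp) and Letm1 (2842 bp). Of the phospholipase C genes, which supply IP3, 4 of 10 were marked: Plcd3 (8220 bp), Plcd1 (6759 bp), Plcg1 (4187 bp) and Plcb3 (3502 bp). Plcb1, Plcb2, Plcb4 and Plcd4 were among the 6 without a peak. Plcb2, Plcb4 and Plcd4 had no CGI promoter, and 4 of the 7 phospholipase C genes with a CGI promoter were marked. Downstream of entry, 10 of 11 calmodulin, calcineurin and NFAT genes were marked, and all 11 had a CGI promoter. Nfatc1 had the widest peak of the whole list (10495 bp), and Ppp3ca (5051 bp), Nfatc3 (4980 bp) and Calm2 (4905 bp) followed within this group. Nfatc2 alone had no peak at any of its 5 basic TSSs, but 3 peaks inside the gene.

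**Figure D5:**
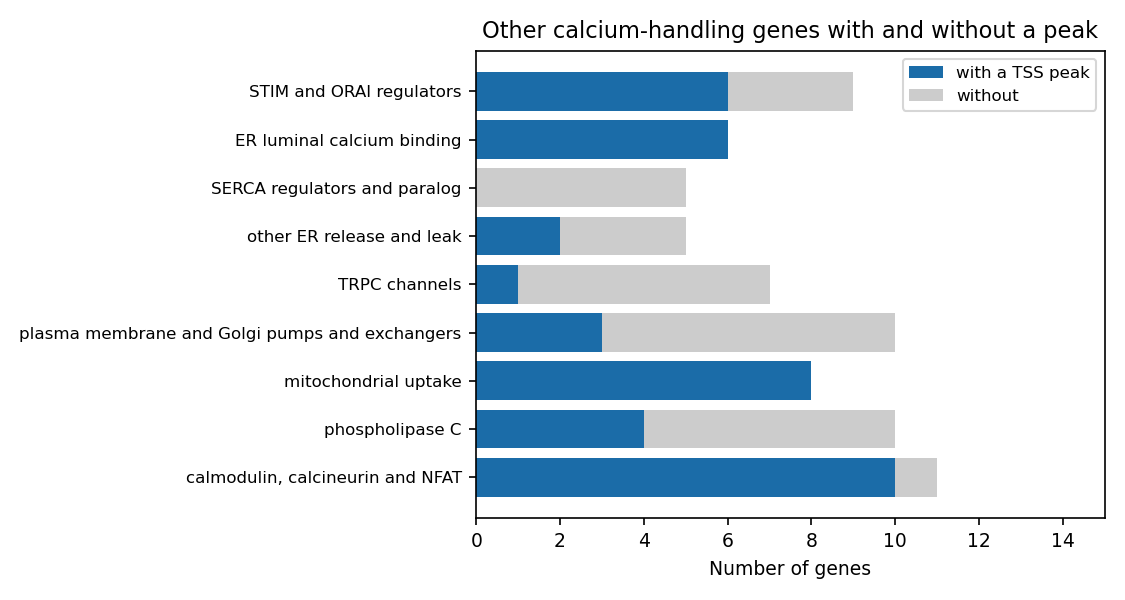
Number of listed calcium-handling genes with (blue) and without (grey) an H3K4me3 peak at a TSS, by group. All 6 ER luminal genes and all 8 mitochondrial genes have a peak, and 0 of 5 genes for SERCA1 and SERCA regulators and 1 of 7 TRPC channels do. The ER luminal and mitochondrial genes all have a CpG island promoter, and the 5 genes for SERCA1 and SERCA regulators have none.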

How the data were processed

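H3K4me3 ChIP-seq of C127 cells was analysed as the deposited consensus list of 3 replicates. The list is an interval file of 3 columns (chromosome, start and end, in bp), with no score, count or p-value. Per the methods of the study, the authors aligned reads to mm10, discarded those without a unique position, removed duplicates, called peaks per replicate against a matched control, kept peaks found in all replicates and joined close ones. Bowtie2, SAMtools and MACS2 are the tools listed in the submitters' processing notes, without versions. A peak missing from 1 replicate is therefore absent here, and depth per sample is unknown.

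Starts were converted to 1-based positions. The 52482 TSSs came from the basic set of GENCODE vM21 for coding and lncRNA genes on GRCm38.p6, which is mm10. Width is that of the widest peak within 250 bp of a TSS, reach is measured from the most upstream TSS, and percentiles are among marked protein-coding genes. Scripts ran in Python 3.11.15 (numpy 2.4.6, matplotlib 3.10.9), and peak and island assignment was tested on simulated data. The alternatives were another TSS distance, other transcript sets, wider peaks only and stricter islands.

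The genes and lists were chosen with earlier results of these data known. The text names the 10 genes, genes whose TSS lies in one of their peaks or within 2 kb of their TSSs, and from each group of the calcium list up to 4 genes with the widest peaks and up to 4 without, in alphabetical order, or all genes where the group has 6 or fewer. Saraf and Stimate were added after their values were seen. A gene that this rule would name is not reported here.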

Additional observations from a re-analysis of the deposited data

How the results depend on the processing

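Recomputed under the alternatives, 37 of 39 values stayed within the limits set for them. For counts the limit was a fixed ratio to the main value, and for medians an interval from the same genes. A TSS distance of 0 could not unmark any of the 10 genes, since all their marked TSSs lay inside a peak. Atp2a3 was the only unmarked gene of the set at TSS distances of 0 and 1000 bp, with comprehensive transcripts, with 1 TSS per gene and with peaks of at least 1000 bp. None of these settings could change a call in the set. The peak nearest to the TSS of Atp2a3 lay 7138 bp away, and its additional TSSs lay still further from a peak. At the other genes 1 peak of at least 3234 bp spanned every basic TSS. Median width and reach were the same under every setting, so the 37 values say little about robustness. The number of marked TSS positions moved from 16 of 17 to 26 of 54 with comprehensive transcripts and to 9 of 10 with 1 TSS per gene, since these settings change how many TSSs are counted. Gene-body peaks numbered 4 rather than 5 when only peaks of at least 1000 bp were kept. Of the 71 calcium-handling genes, 39 to 41 were marked instead of 40: Nfatc4, Atp2c1 or Mcub dropped out under 1 setting each, and Cracr2b entered at 1000 bp and with comprehensive transcripts. The share of all protein-coding genes marked ranged from 47.6% to 50.2%.

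No paired analysis was possible because the 3 replicates are present only as 1 consensus list; leaving out a replicate was not run for the same reason. The list has no heights, so a weak peak and a strong one count alike, and widths depend on the joining of close peaks, the smallest gap being 251 bp. Absence of a peak is not absence of H3K4me3, and a peak is not a measure of transcription.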
